A study of Mus musculus with 6 samples.

Results

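The 7 genes described here are Slc16a1, Slc16a6, Slc16a7, Slc16a10, Slc16a12 and Slc16a13 of the SLC16 transporter family and Bsg, the gene of basigin. They were chosen by symbol among the 37991 Ensembl gene IDs counted in mouse liver, and all 7 were measured and passed the low-count filter that left 12631 genes. The count files hold 14 SLC16 genes in all, so the 6 chosen ones are not the whole family, and Slc16a5, Slc16a9 and Slc16a11 are among others above the filter. Poly(A) RNA was sequenced from the livers of FVB mice at 84 days of age, 3 of genotype Ing5 +/+ (WT) and 3 of genotype Ing5 MommeD48/+ (Het). Ing5 encodes a PHD-finger subunit of histone acetyltransferase complexes, and the MommeD48 allele comes from a screen for modifiers of transgene silencing. The allele is carried in the whole animal and not in hepatocytes alone, and the kind of mutation and the sex of the mice are not given in the labels. The group was drawn up with the Het and WT values of Slc16a1 already known, so differences between the genotypes in these 7 genes are given as descriptions. Their calls in the fit over all genes are counted once, and nothing is read from those counts.

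SLC16 proteins carry small organic acids and related molecules across membranes. The best known of them, the monocarboxylate transporters, move lactate, pyruvate and ketone bodies together with a proton, in the direction set by the gradients. Several reach the cell surface only when bound to a single-pass immunoglobulin-family protein, which for MCT1 is basigin and for MCT2 chiefly embigin. In liver these carriers take up lactate and pyruvate for glucose synthesis and release ketone bodies in fasting, while other family members carry aromatic amino acids or creatine.

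Of the 7 genes, 3 had an entry in the RefSeq promoter table of the C57BL/6J reference, Slc16a1, Slc16a10 and Slc16a12. The 250 bases before the start of Slc16a1 and of Slc16a12 are shown because these genes are the one whose WT and Het values stood apart and one whose values stayed close together. The Slc16a1 window is chr3:104638414-104638663 on the plus strand and the Slc16a12 window chr19:34747329-34747578 on the minus strand, both in GRCm38.p6 and written 5′ to 3′ on the gene's strand. Capitals mark matches to the letters CACGTG (E-box), GGGCGG (GC box) and TATAA (TATA element), each searched on both strands.
Slc16a1: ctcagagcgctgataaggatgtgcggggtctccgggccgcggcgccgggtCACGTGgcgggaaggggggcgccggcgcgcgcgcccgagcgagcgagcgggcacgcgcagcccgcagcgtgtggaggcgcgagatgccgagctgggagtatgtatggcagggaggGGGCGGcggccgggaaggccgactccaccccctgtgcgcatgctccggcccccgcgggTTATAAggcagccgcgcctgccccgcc
Slc16a12: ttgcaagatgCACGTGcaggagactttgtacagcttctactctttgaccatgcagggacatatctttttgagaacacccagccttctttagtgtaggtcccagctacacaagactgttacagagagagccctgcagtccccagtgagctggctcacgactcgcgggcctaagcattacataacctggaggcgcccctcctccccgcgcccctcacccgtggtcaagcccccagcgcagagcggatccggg
The Slc16a1 window was 76.4% G or C with 37 CG dinucleotides, and the Slc16a12 window 57.6% with 11, where the median over all promoters of the table was 52.4% G or C. CACGTG began 200 bases before the start in Slc16a1 and 240 before it in Slc16a12, and 6.04% of 32536 distinct windows of this length hold it. GGGCGG was found in Slc16a1 and not in Slc16a12, against 33.0% of all windows. TATAA began 26 bases before the start of Slc16a1, where its reverse complement TTATA overlaps it, against 22.7% of all windows. These matches describe letters in the reference sequence and do not show that a factor is bound in these livers.

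Basigin, the chaperone, was the most abundant of the 7 transcripts when levels were set per length. Levels were expressed as CPM, counts scaled to library size, per kb of the union of annotated exons, in GENCODE M21. That annotation is of another build than the counts, so the order is approximate where neighbours lie close. Bsg had 154 ± 13.5 CPM per kb (SD over all 6 livers), followed by Slc16a12, a transporter for which creatine transport is known of the human protein, with 33.0 ± 2.50 CPM per kb. Slc16a1, the gene of MCT1, had 12.3 ± 1.89 CPM per kb and Slc16a10, the gene of the aromatic amino acid transporter TAT1, 12.0 ± 2.08 CPM per kb. These levels do not differ beyond their spread, and with the longest transcript as the length Slc16a10 came first, at 16.4 ± 2.84 against 12.3 ± 1.89 CPM per kb. Slc16a7, the gene of the high-affinity lactate and pyruvate carrier MCT2, had 4.24 ± 0.960 CPM per kb. The lowest levels were those of Slc16a13, the gene of MCT13, for which lactate transport has been reported, with 1.26 ± 0.193 CPM per kb, and of Slc16a6, with 1.20 ± 0.364 CPM per kb. The product of Slc16a6, MCT7, exports the ketone body beta-hydroxybutyrate from the liver in zebrafish. Slc16a13 and Slc16a6 do not differ beyond their spread, and they changed places with the longest transcript as the length.

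Among the SLC16 genes outside the 7, several were close to absent. The lactate exporter gene Slc16a3 (MCT4) had 2 to 8 counts per library and the embigin gene Emb 2 to 8 counts. Slc16a4 had 0 to 2 counts, Slc16a8 a single count in WT replicate 3, and Slc16a14 none in any library, where 0 counts allow up to 0.136 to 0.154 CPM (3 counts per library, counting error only). In bulk liver a low value from fewer cells of a type and one from less RNA per cell cannot be told apart.

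**Figure D1:**
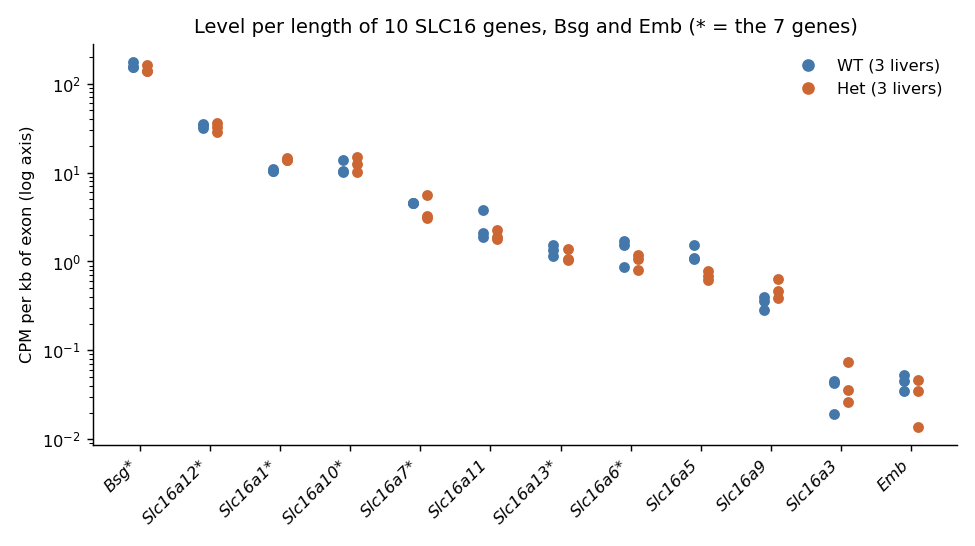
Level per length of 10 SLC16 genes, Bsg and Emb in each liver, as CPM per kb of annotated exon on a log axis. Points are livers, blue for WT and orange for Het, and an asterisk marks the 7 genes; Slc16a4, Slc16a8 and Slc16a14 are left out because at least 1 library had 0 counts, and not every other family member is drawn. Bsg lies highest, at 154 ± 13.5 CPM per kb, and Slc16a3 and Emb lie lowest.

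The library totals were 19840541 to 22041117 counts, and mitochondrial genes took 10.8% to 13.4% of them. Of 8 hepatocyte markers 7 were matched, with a summed level of 84020 to 97337 CPM in WT livers against 86493 to 105101 CPM in Het livers, and skeletal muscle and pancreatic acinar markers each summed to under 1 CPM in every liver. Ing5 itself had 182, 228 and 191 counts in the WT livers against 193, 217 and 180 in the Het libraries, a fold of 0.968 (95% interval 0.814 to 1.15), and edgeR's quasi-likelihood test did not separate the genotypes (Benjamini-Hochberg adjusted p = 0.9998; exact two-sided permutation p = 0.8, where 0.1 is the smallest possible with 3 against 3). The labels number the livers but do not state that they are different mice. P-values therefore cover only how much these 6 samples vary, and that variation may be technical.

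Slc16a1 had higher values in all 3 Het livers than in any WT liver. Its level was 46.4, 46.4 and 48.3 CPM in WT replicates 1 to 3 and 60.6, 64.0 and 61.8 CPM in Het replicates 1 to 3. Each genotype was tightly grouped, and the lowest Het value lay well above the highest WT value. The group means were 47.1 ± 1.10 CPM (SD, n = 3) and 62.1 ± 1.69 CPM (SD, n = 3), a fold of 1.32 in Het over WT with a 95% interval of 1.18 to 1.48. On the log2 scale the difference was 0.40 with a standard error (SE) of 0.07, and it was 0.38 to 0.42 when each liver was left out in turn. The coefficient of variation within a genotype was 2.33% in WT livers against 2.72% in Het livers, no larger than the 2.96% that counting error alone gives at the mean count of this gene. These values were part of what chose the gene and are a description.

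The share of Slc16a1 among all SLC16 counts differed between the genotypes in the same way, since it rests on the same counts. It was 8.14%, 8.05% and 8.73% in the WT livers against 10.7%, 10.9% and 11.0% in the Het livers. The summed level of all SLC16 genes was 567 ± 11.8 CPM in WT livers against 572 ± 12.7 CPM in Het livers (SD, n = 3), so the genotypes overlapped in the total while Slc16a1 took a larger part of it in Het. Leaving out each liver in turn kept the difference in share between 2.42 and 2.76 percentage points.

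Markers of other cells that could carry Slc16a1 or Bsg RNA are given beside this difference. Red blood cells use both proteins, and 7 of 9 erythroid markers were matched, with a summed level of 179 to 287 CPM in WT livers against 106 to 220 CPM in Het livers. Sinusoidal endothelial markers (8 of 8 matched) summed to 133 to 178 CPM in WT livers against 135 to 172 CPM in Het livers. Neither of these sums was higher in all Het livers. Kupffer cell markers (9 of 9 matched) summed to 124 to 227 CPM in WT livers against 138 to 244 CPM in Het livers, and stellate cell markers (8 of 8) to 187 to 262 and 233 to 296 CPM. Cholangiocyte markers (6 of 6) summed to 29.6 to 33.6 and 26.9 to 29.1 CPM, and lymphocyte markers (7 of 7) to 6.94 to 8.35 and 6.15 to 10.7 CPM. Adipocyte markers (5 of 5) summed to 1.65 to 3.22 and 1.01 to 4.30 CPM. The genotypes overlapped in each of these sums except that of the cholangiocyte markers, which was lower in all 3 Het livers. Most of that sum was Spp1, with 28.1, 25.2 and 29.7 CPM in the WT livers against 23.1, 23.8 and 24.9 CPM in the Het livers. The cholangiocyte markers did not go 1 way: of the 5 tested, 3 had log2 fold changes above 0 and 2 below, with a median of 0.14. No marker of these 7 lists was at 0 in every library, while Myh1 and Ckm of muscle and Cpa1, Prss2, Pnlip and Amy2a5 of acinar cells were. The part of any of these cells in the Slc16a1 values was not tested.

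Bsg, which MCT1 needs to reach the cell surface, had no corresponding higher values in Het livers. Its level was 279, 316 and 282 CPM in the WT livers against 296, 252 and 255 CPM in the Het livers. WT replicate 2 was the highest and Het replicates 2 and 3 the lowest, and the genotypes overlapped through Het replicate 1. The means were 292 ± 20.5 CPM and 267 ± 24.7 CPM (SD, n = 3), a fold of 0.914 with a 95% interval of 0.775 to 1.08. The number of Bsg counts for each Slc16a1 count was 6.01, 6.80 and 5.84 in the WT livers against 4.88, 3.93 and 4.12 in the Het livers. All 3 Het ratios lay below the WT ratios, a difference that comes from the same counts as the values above. The ratio also carries the lengths of both genes, so it can be compared between livers and not read as a ratio of molecules.

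**Figure D2:**
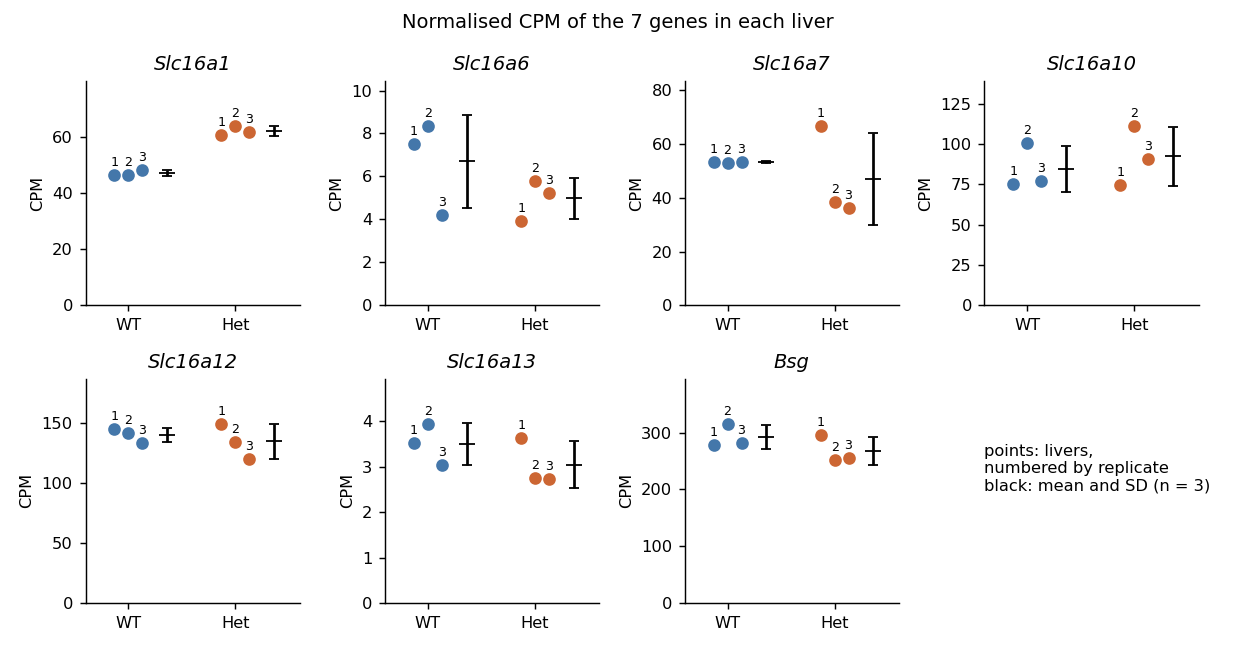
Normalised CPM of the 7 genes in each liver, one panel per gene with its own linear axis from 0. Points are livers numbered by replicate, blue for WT and orange for Het, and black marks show the mean with the SD (n = 3). In Slc16a1 all Het points, at 60.6 to 64.0 CPM, lie above all WT points, at 46.4 to 48.3 CPM, and in the other 6 genes the genotypes overlap.

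Slc16a7 differed mainly between Het livers. Its level was 53.5, 53.1 and 53.4 CPM in the WT livers against 66.8, 38.4 and 36.1 CPM in the Het livers. The WT livers were nearly identical, with a coefficient of variation of 0.387%, below the 3.09% that counting error alone gives, whereas the Het livers lay on both sides of them with 36.4%. Het replicate 1 was the highest of all livers and Het replicates 2 and 3 the lowest. The log2 fold change was -0.18 (SE 0.23) with all livers. It was -0.52 without Het replicate 1, -0.05 without Het replicate 2 and -0.02 without Het replicate 3, so single livers decide its size.

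Het replicate 1 also had by far the highest levels of a pair of PPARA target genes, picked out after the values were seen. PPARA is the nuclear receptor that turns on fatty acid oxidation in fasting. Cyp4a14, a fatty acid hydroxylase gene, had 3.66, 64.3 and 14.2 CPM in the WT livers against 630, 38.3 and 54.2 CPM in the Het livers. Cyp4a10, a related gene whose reads can be shared with its near copies, had 17.0, 126 and 61.9 CPM in the WT livers against 673, 84.9 and 77.0 CPM in the Het livers. The mean score of the whole PPARA list, the log2 CPM of its 12 genes centred on the 6 livers, was -0.50, 0.30 and -0.33 in the WT livers against 0.91, -0.15 and -0.23 in the Het livers. Beside these scores Slc16a7 had 53.5, 53.1 and 53.4 CPM in the WT livers against 66.8, 38.4 and 36.1 CPM in the Het livers. Slc16a1, at 60.6 CPM in Het replicate 1, was there at the lower end of the Het livers. The part of the PPARA genes in the Slc16a7 values was not tested.

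Slc16a10 also varied between livers within each genotype. Its level was 75.1, 101 and 77.3 CPM in the WT livers against 75.0, 111 and 91.1 CPM in the Het livers. Replicate 2 of each genotype was the highest and replicate 1 the lowest, and the genotypes overlapped over nearly their whole range. The coefficients of variation were 16.9% and 19.8%, against 2.32% from counting error. The log2 fold change was 0.13 (SE 0.16) and ran from -0.02 without Het replicate 2 to 0.28 without WT replicate 2, so its sign rests on 1 liver.

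Slc16a12 was the steadiest of the abundant transporters. Its level was 145, 142 and 134 CPM in the WT livers against 150, 135 and 120 CPM in the Het livers, so the WT values lay within the range of the Het values. The log2 fold change was -0.06 (SE 0.10), a fold of 0.962 with a 95% interval of 0.826 to 1.12. It turned to 0.02 without Het replicate 3.

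The 2 least abundant members were measured with few counts. Slc16a13 had 73, 87 and 59 counts in the WT livers against 76, 60 and 56 counts in the Het libraries, and its coefficients of variation of 13.1% and 16.9% were close to the 12.1% from counting error. Its level was 3.50 ± 0.458 CPM in WT livers against 3.04 ± 0.513 CPM in Het livers (SD, n = 3). Slc16a6 had 156, 184 and 82 counts in the WT livers against 82, 126 and 107 counts in the Het libraries. WT replicates 1 and 2 stood above the other 4 livers, and WT replicate 3 was as low as Het replicate 1. The coefficients of variation of Slc16a6 were 32.7% and 19.3%, above the 9.02% from counting error. Its level was 6.69 ± 2.19 CPM in WT livers against 4.98 ± 0.961 CPM in Het livers, and the log2 fold change of -0.43 (SE 0.26) ran from -0.67 without WT replicate 3 to -0.24 without WT replicate 2. Exons of Slc16a6 overlap those of Arsg and Amz2 on the opposite strand in GENCODE M21. The strand used in counting is not given in the sources used here, so the Slc16a6 counts are uncertain.

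**Figure D3:**
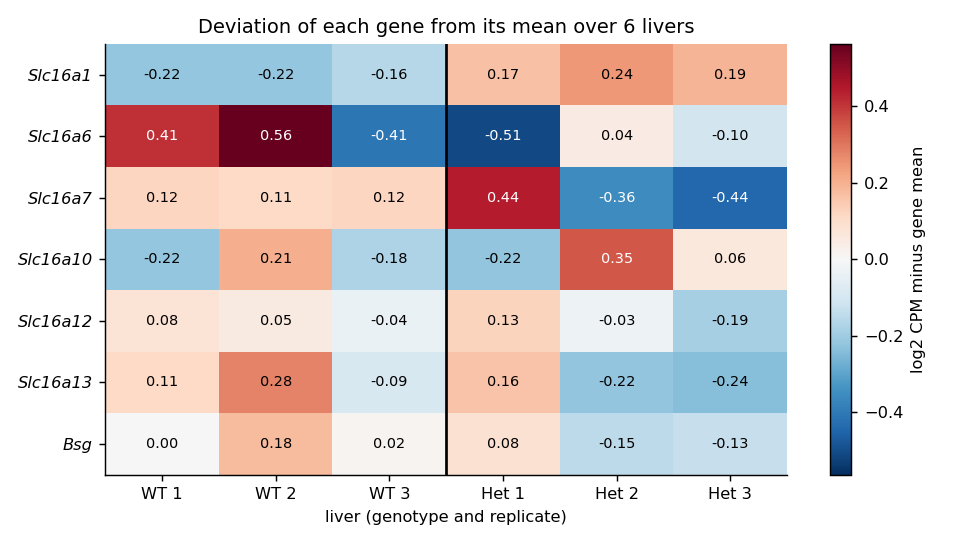
Deviation of the 7 genes from their own mean over the 6 livers, as log2 CPM minus the gene mean, with livers in columns and a black line between WT and Het. Red is above and blue below the mean. Slc16a1 is below its mean in all 3 WT livers (-0.22 to -0.16) and above it in all 3 Het livers (0.17 to 0.24), and Slc16a7 runs from 0.44 in Het replicate 1 to -0.44 in Het replicate 3.

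The transporters did not form one pattern over the livers. The likeness of a pair was taken as the root mean square difference of log2 CPM centred on the 6 livers, where 0 is identical. The closest pair was Slc16a12 and Bsg with 0.09, followed by Slc16a13 and Bsg with 0.10 and Slc16a12 and Slc16a13 with 0.13. Slc16a1 was at least 0.24 from each of the other 6, and it was closest to Slc16a10, while the most distant pair was Slc16a6 and Slc16a7 with 0.54. All pairs share the same 6 libraries, so these values describe the livers and carry no test.

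Among the 12631 genes tested, the 5 with the pattern most like Slc16a1 were Rpgr, Fam161a, Ccdc61, Ccdc88a and Tle6, with root mean square differences of 0.04 to 0.06 over the 6 livers. The closest, Rpgr, had 2.36, 2.36 and 2.52 CPM in the WT livers against 3.06, 3.13 and 3.32 CPM in the Het livers. All 5 were scarce, from 0.953 CPM (Ccdc88a, WT replicate 2) to 3.41 CPM (Fam161a, Het replicate 2). At such levels counting error is large, so the closeness of these matches says little. For Bsg the 5 closest genes were Gnl2, Tmbim1, Tmc6, Slc25a28 and Metap1d, with differences of 0.01 to 0.03. Gnl2 had 29.1, 32.5 and 28.5 CPM in the WT livers against 30.5, 25.7 and 26.0 CPM in the Het livers. These matches are a description over 6 livers and carry no test.

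In the fit over all genes, 0 of the 7 passed 0.05 in edgeR (quasi-likelihood, Benjamini-Hochberg over all genes), where 0% of all genes tested did. With DESeq2 and limma-voom 0 of the 7 passed, where 13 and 0 of all 12631 genes did. An unadjusted p under 0.05 was given to 1 of the 7 (Slc16a1), and to 4.33% of all genes. The WT and Het values did not overlap for 1 of the 7, again Slc16a1, and for 8.99% of all genes. All Het values were higher for 1 of the 7 and for 4.72% of all genes, and lower for 0 of the 7 and for 4.28%. The group was drawn up with this contrast of Slc16a1 known, so these counts are no evidence about the 7 genes. The median log2 fold change of the 7 genes was -0.13 and that of all genes tested 0.0009, with 2 of the 7 above 0 and 5 below.

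**Figure D4:**
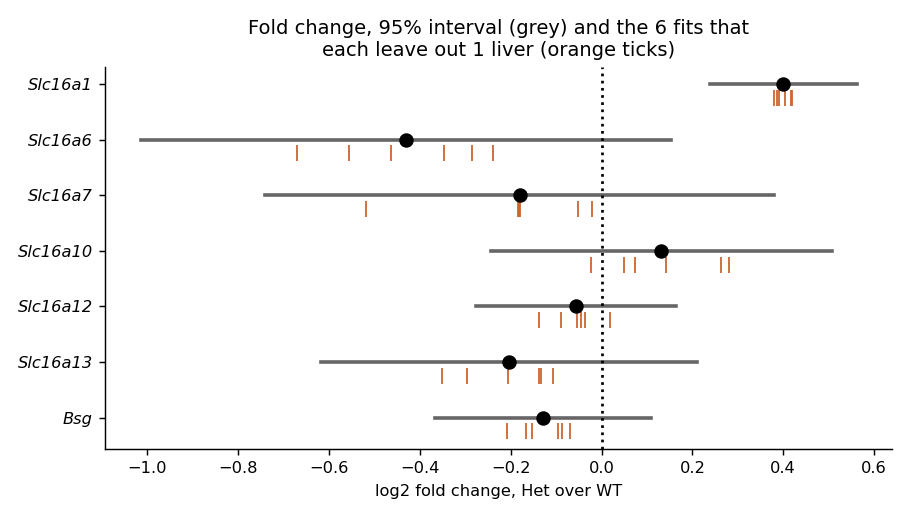
Log2 fold change of the 7 genes in Het over WT livers (black points) with the 95% interval (grey lines) from the edgeR fit of all 6 livers, and the values from the 6 fits that each leave out 1 liver (orange ticks). The interval of Slc16a1 runs from 0.24 to 0.56 and its ticks from 0.38 to 0.42. The intervals of the other 6 genes include 0. The values of Slc16a1 were part of what chose the gene, so its interval is a description and not a test.

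Genes around these transporters, in 7 lists of 67 distinct genes, showed no change that passed the test. Of the 60 tested, 0 passed in edgeR (quasi-likelihood, Benjamini-Hochberg over all genes, smallest adjusted p = 0.974), where 0% of all genes tested did. With DESeq2 and limma-voom 0 of the 60 passed, where 13 and 0 of all 12631 genes did. At an unadjusted p under 0.05, 1 had higher values in Het livers (Xkr8), where 2.12% of all genes did, and 4 had lower values (Slc16a5, Pdk4 and Slc43a2 among them), where 2.21% of all genes did. The median log2 fold change of the 60 was -0.02.

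In the rest of the SLC16 family with embigin, 4 of 9 genes were tested and 0 passed, where 0% of all genes tested did. Slc16a5, the gene of MCT6, had 5.73, 4.04 and 3.96 CPM in the WT livers against 2.54, 2.85 and 2.29 CPM in the Het livers. All Het values lay below the WT values, with a log2 fold change of -0.84 (SE 0.20), and the difference did not pass (edgeR, Benjamini-Hochberg adjusted p = 0.974). Slc16a11, which lies near Slc16a13 and also encodes a family member, had 5.35, 4.81 and 9.62 CPM in the WT livers against 5.74, 4.51 and 4.83 CPM in the Het livers, so WT replicate 3 stood above the other 5.

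None of the genes for enzymes that make and use the transported acids passed the edgeR test, and no other gene tested did. Of 17 lactate and pyruvate genes 15 were tested, 4 with fold changes above and 11 below 0, and the median log2 fold change was -0.08. Ldha, the gene of a lactate dehydrogenase subunit, had 743 ± 138 CPM in WT livers against 703 ± 54.3 CPM in Het livers (SD, n = 3). The pyruvate carboxylase gene Pcx had 578 ± 77.6 and 519 ± 87.9 CPM and the alanine aminotransferase gene Gpt2 508 ± 37.2 and 430 ± 48.8 CPM. Pdk4, whose product holds back pyruvate dehydrogenase in fasting, had 2.72 ± 0.237 and 1.82 ± 0.0835 CPM without overlap, a log2 fold change of -0.58 (SE 0.18). It did not pass (edgeR, Benjamini-Hochberg adjusted p = 0.9998).

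All 7 ketone body genes were tested, 5 with fold changes above 0, with a median of 0.04. The thiolase gene Acat1 had 523 ± 16.8 CPM in WT livers against 590 ± 23.0 CPM in Het livers without overlap (log2 fold change 0.17, SE 0.10), and Bdh1, the gene of beta-hydroxybutyrate dehydrogenase, 386 ± 31.1 and 413 ± 65.7 CPM.

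Of the 10 aromatic amino acid genes, all tested, 6 had fold changes above 0, with a median of 0.03. Tdo2, which encodes the enzyme that opens the tryptophan ring, had 1867 ± 154 CPM in WT livers against 1938 ± 118 CPM in Het livers. The tyrosine catabolism gene Hpd had 1265 ± 270 and 1328 ± 126 CPM. Slc43a2, a neutral amino acid transporter gene, had 7.19 ± 0.582 and 5.55 ± 1.09 CPM without overlap (log2 fold change -0.37, SE 0.16) and did not pass. The 4 creatine genes had a median of -0.22. Among them Gamt, the gene of the enzyme that completes creatine, had 121 ± 33.9 and 102 ± 17.8 CPM. The gene of the preceding enzyme, Gatm, had 13.9 ± 0.992 and 14.5 ± 2.03 CPM and the creatine transporter gene Slc6a8 3.92 ± 0.272 and 2.97 ± 0.623 CPM.

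None of the genes for proteins that bind basigin or resemble it passed the edgeR test, and no other gene tested did. The 8 genes of this list were all tested, 3 with fold changes above 0, with a median of -0.02. Ppia, the gene of cyclophilin A, which binds basigin outside the cell, had 257 ± 39.7 CPM in WT livers against 256 ± 4.55 CPM in Het livers, and the cyclophilin B gene Ppib 173 ± 18.4 and 189 ± 22.7 CPM. Nptn, the gene of neuroplastin, a close relative of basigin, had 58.8 ± 0.780 and 57.3 ± 4.56 CPM. Xkr8, the gene of a phospholipid scramblase that needs basigin to reach the surface, had 7.13 ± 0.549 and 8.58 ± 0.625 CPM without overlap (log2 fold change 0.27, SE 0.12) and did not pass.

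In the PPARA list, 12 of 12 genes were tested, 5 with fold changes above 0, and the median was -0.02. The carnitine palmitoyltransferase gene Cpt1a had 365 ± 44.7 CPM in WT livers against 359 ± 42.5 CPM in Het livers, and the lipid droplet gene Plin2 had 390 ± 10.5 and 333 ± 66.8 CPM.

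**Figure D5:**
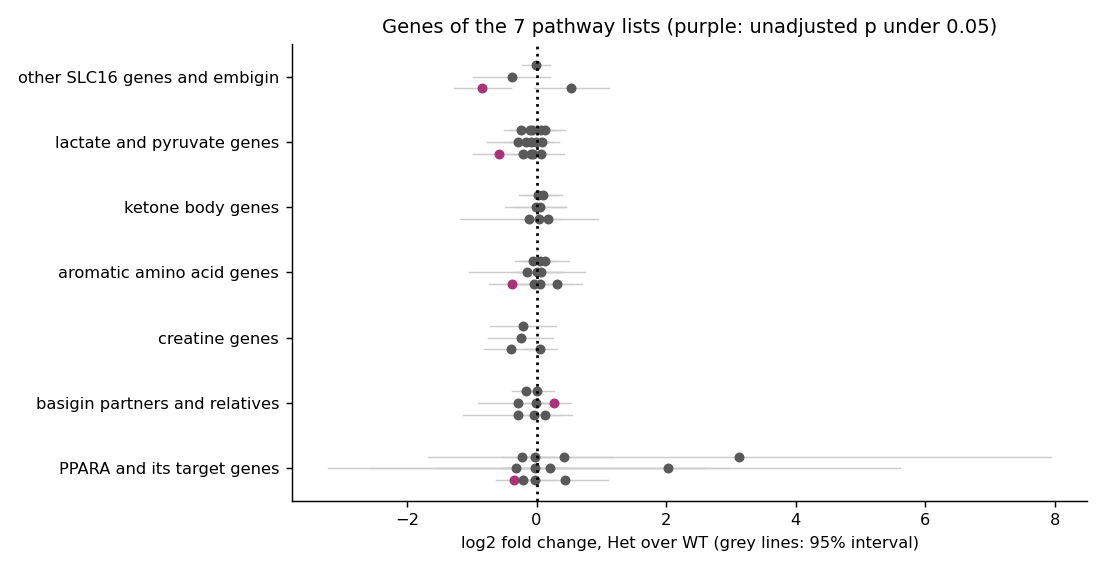
Log2 fold change in Het over WT livers of the tested genes in the 7 pathway lists, with 95% intervals as grey lines. Each point is a gene, purple where the unadjusted p is under 0.05 (5 genes) and grey otherwise. Slc16a5 lies lowest among the other SLC16 genes, at -0.84, and in the PPARA list the interval of Cyp4a14, at a log2 fold change of 3.13, is wide because Het replicate 1 stands far above the other livers.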

How the data were processed

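Each deposited file holds raw whole-number counts by Ensembl gene ID for 1 liver. TopHat2 2.0.11, HTSeq 0.6.1 and DESeq are named with mm9, per the submitters' processing notes, without their roles. The annotation release and counting strand are not given in the sources used here. Symbols were matched by ID for 32919 of 37991 IDs. The fits used R 4.3.3 and edgeR 4.0.16 (filterByExpr, TMM, robust quasi-likelihood fit, genotype as sole factor) and Benjamini-Hochberg adjustment at 0.05. Intervals and SE come from the F statistic, and likeness used log2 CPM with a prior count of 2. Alternatives were DESeq2 size factors, no filter, CPM above 1 in 3 libraries, the replicate number as a block, DESeq2 1.42.0, limma-voom (limma 3.58.1) and each liver left out. The newer edgeR fit and the longest-transcript length were added after the data were seen. The steps were tested on simulated data. No library was a copy of another (chi-square per degree of freedom at least 9.33).

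The genes and lists were chosen with earlier results of these data known. The genes named were the 7, Ing5, the 3 most abundant of each pathway list with those at an unadjusted p under 0.05, and the 5 closest to Slc16a1 and to Bsg. Some genes this rule names are not reported here. Slc16a9, the scarce SLC16 genes, Cyp4a10 and Cyp4a14 were added after their values were seen. Acute-phase genes were listed as a measure of liver state.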

Additional observations from a re-analysis of the deposited data

How the results depend on the processing

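The log2 fold change of Slc16a1 stayed between 0.38 and 0.42 in all 13 alternatives, and the 7 genes' median ran from -0.21 to -0.02 with 1 liver left out. The count of genes past the threshold, 0 with edgeR (547 at an unadjusted p under 0.05), was 1 without a low-count filter, 13 with DESeq2 and 0 to 17 with 1 liver left out: 17 without WT replicate 3 and 10 without Het replicate 1. None of these were among the 7 genes or the pathway lists. With the replicate number as a block 0 genes passed (602 at an unadjusted p under 0.05), and the Slc16a1 value was 0.40 (SE 0.09). The labels do not say whether livers of the same number were paired. Correlations of same-numbered deviations were -0.02, -0.08 and 0.22, within the -0.22 to 0.25 of differently numbered livers, and so few livers cannot decide it. The Ing5 log2 fold change ran from -0.12 to 0.00771 with 1 liver left out, the latter without WT replicate 2. The Slc16a1 share differed by 2.42 to 2.76 percentage points with 1 liver left out. Depth limits Slc16a13, at 56 to 87 counts per library.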

Other observations

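Acute-phase genes, which hepatocytes induce in inflammation, varied widely between the livers, and the transporters differed in how their values lay beside that state. The mean score of the 17 acute-phase genes was 0.90, 1.92 and -1.10 in the WT livers against 0.61, -0.99 and -1.34 in the Het livers. The deviations of Bsg from its mean were 0.00, 0.18 and 0.02 in the WT livers against 0.08, -0.15 and -0.13 in the Het livers. Those of Slc16a13 were 0.11, 0.28 and -0.09 and 0.16, -0.22 and -0.24, so both were highest in the liver with the highest score. Those of Slc16a12 were 0.08, 0.05 and -0.04 and 0.13, -0.03 and -0.19. Slc16a12 and Slc16a13 were higher in each of the 3 livers with high scores than in any of the 3 with low scores. Slc16a1, Slc16a6, Slc16a7, Slc16a10 and Bsg were not, and Bsg missed it narrowly, with 279 CPM in WT replicate 1 against 282 CPM in WT replicate 3. The spread of Slc16a13 is close to its counting error of 12.1%. The share of all genes tested that separate these livers in the same way was not computed, so nothing is read from this. The deviations of Slc16a1 were -0.22, -0.22 and -0.16 in the WT livers against 0.17, 0.24 and 0.19 in the Het livers. Within each genotype its values were slightly lower in the livers with high scores, WT replicates 1 and 2 and Het replicate 1. That spread, 2.33% in WT and 2.72% in Het livers, is no larger than its counting error of 2.96%, so nothing is read from this order. The livers fall into 3 with high and 3 with low scores, so no correlation is given, and the part of the acute-phase state in these values was not tested.

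Slc16a9, the gene of MCT9, a carnitine carrier, had 1.54, 1.09 and 1.39 CPM in the WT livers against 1.82, 2.49 and 1.51 CPM in the Het livers. Its log2 fold change of 0.54 was above that of Slc16a1, but it rests on 24 to 54 counts per library and the genotypes overlapped.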
